A study of Sus scrofa with 22 samples.

Results

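Foliate papillae are folds at the side of the tongue whose walls carry taste buds, and taste organoids are clusters of epithelial cells grown from them in a gel of basement membrane proteins. The comparison described here set passage 1 organoids, grown in the medium named LPM, against the foliate papillae of the same pigs (Sus scrofa). Its samples were chosen by their titles, which name native foliate tissue or foliate organoids with a pig number, and they were 10 of the 22 RNA sequencing samples of the series. There were 5 papillae and 5 organoid cultures, 1 of each from pigs 1 to 5, and values given in a row below stand in the order of pigs 1 to 5. Age, sex, breed and treatment of the pigs, and the day of harvest of the organoids, are not given in the sources used here.

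LPM, an abbreviation that the sources used here do not spell out, was renewed every 48 h. Per the labels' protocols its protein factors, in ng/ml, were R-spondin 2 (500), FGF10, noggin, SHH and Wnt3a (100 of each), EGF (50) and FGF2 (10), and insulin was at 10 nM. It also held small molecules: the GSK3 inhibitor CHIR99021 at 2.5 µM, the TGF-beta receptor inhibitor A-83-01 at 0.5 µM, the p38 inhibitor SB202190 at 10 µM, the ROCK inhibitor Y-27632 at 10 µM, forskolin at 1 µM, prostaglandin E2 at 20 nM, N-acetylcysteine at 1.25 µM and nicotinamide at 10 mM. Every agent in this list was present in the medium of all 5 organoid cultures, and the papillae were not cultured, so the effect of any 1 agent cannot be told apart from that of growth in culture. Papillae and organoids were also extracted with different RNA kits, whose effect cannot be told apart from that of culture either.

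A papilla is a tissue. Besides stratified epithelium and taste buds it holds connective tissue, vessels, nerves, muscle of the tongue and the von Ebner glands, which empty into the clefts between the folds. Organoid cultures are started from such tissue, but the medium and the gel favour epithelial cells, which then live without blood supply, nerves or a mucosal surface and meet growth factors on all sides. Epithelial cells hold to each other by desmosomes, adherens junctions, tight junctions and gap junctions, and to the matrix below by integrins that bind laminins. Cells that line the mouth make a barrier and secrete mucins, antimicrobial proteins and fluid, and the signalling pathways fed by the medium control how they divide and mature.

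Papilla libraries held 17.04 to 20.71 M counts and organoid libraries 21.79 to 27.77 M, with 20256 to 21149 genes detected in papillae and 17907 to 19049 in organoids. Levels are given as CPM, counts for every 1000000 of a library total scaled with TMM, a factor that assumes most genes do not change. Of 16311 genes tested with the pig as a block, 10679 (65.5%) were called, that is, had an adjusted p under 0.05. In organoids 4956 (30.4% of those tested) were higher and 5723 (35.1%) lower, and 2249 (13.8%) and 4503 (27.6%) of these differed at least 2-fold. The CPM of the papillae and organoids did not overlap at 8818 of the genes tested (54.1%), and 10073 called genes moved the same way in all 5 pigs. The counts of the lists below are read against those shares.

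The split depended on the scaling. The median log2 fold change of all genes tested was -0.05, and higher genes made up 46.4% of the calls. Scaling on library size alone moved that median to 0.24 and the higher share to 58.2%. Scaling with TMM over genes at 1 CPM or more in all 5 organoid libraries gave -0.28 and 35.3%, and scaling on 24 genes expressed by most epithelia gave -0.69 and 15.9%. List medians are read against -0.05. For many lists the sign of the median changed under 1 of these scalings or under DESeq2's size factors. Where the called members of such a list are counted in the text, at least 1 such value, as a count or a median, is given. Other such lists, of which only single genes are named, have no such value. Among these are the lists of glycogen, polyamines, matrix proteases and glycosylation.

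Most markers of cells other than epithelium, and of the glands, were lower in organoids. All 12 skeletal muscle markers tested were lower, with a summed level of 361 to 10569 CPM in papillae and 1.12 to 3.16 CPM in organoids, and 4 of the 13 in the files had 0 counts in organoids. All 12 fibroblast markers were lower (3210.0 to 9238 against 39.7 to 96.5 CPM summed), as were 10 of 11 of endothelium and pericytes (513 to 717 against 61.7 to 161), 13 of 14 of immune cells (165 to 557 against 26.5 to 89.3), 12 of 13 of nerve and Schwann cells (468 to 731 against 155 to 339) and all 8 of the glands (42965 to 205397 against 10.7 to 106). The defining markers PTPRC of leukocytes and MYH2 of fast muscle had 0 counts in all 5 organoid libraries, against 10.2 to 14.98 and 35.9 to 1223 CPM in papillae. The 1 immune marker called higher was CD68 of macrophages, also a lysosomal protein (from 17.3 ± 5.12 to 48.9 ± 26.4 CPM, not called under pan-epithelial scaling or without pig 3), and the 1 nerve marker called higher was NGFR, which basal epithelial cells also express (from 47.8 ± 18.6 to 221 ± 73.6 CPM). COL1A1 of fibroblasts was at 528 to 2142 CPM in papillae and 0.0820 to 0.821 CPM in organoids, PECAM1 of endothelium at 100.1 to 120.3 CPM in papillae and 1.83 to 2.91 CPM in organoids and SOX10 of Schwann cells at 94.8 to 159 CPM in papillae and 0 to 0.244 CPM in organoids. In bulk samples fewer cells of a type and less RNA per cell cannot be told apart. For genes that these cells also express, a lower level in organoids stands beside these lower markers, and their part in the result was not tested.

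Organoids had epithelial markers. EPCAM, an epithelial surface glycoprotein, was at 180.2, 88.4, 78.6, 115 and 199.5 CPM in papillae and 430.3, 533, 515, 447 and 491 CPM in organoids (log2 fold change 1.96, SE 0.27, adjusted p = 0.000528), with no overlap. Of 24 markers of epithelia in general 12 were higher and 4 lower (median log2 fold change 0.37). These are the genes of the pan-epithelial scaling, which makes their mean log2 level equal in all libraries and gave 10 higher and 11 lower (median -0.27). KRT5, the keratin of basal cells, went from 8182 ± 1282 to 1693 ± 403 CPM (mean and SD over 5 libraries, 4.90-fold lower) while KRT8, a keratin of simple epithelia and taste cells, rose 6.27-fold (from 341 ± 127 to 2157 ± 809 CPM). The basal epithelium list as a whole had 5 of 10 higher and 4 lower (median 0.29, and -0.36 under pan-epithelial scaling), and the suprabasal and cornified list had 15 of 16 lower and 0 higher (median -7.44, summed level 25836 to 57166 CPM in papillae and 1202 to 2107 CPM in organoids). The labels name stem cells and mature taste cells in both groups. TRPM5, the channel of type II taste cells, was 8.16 to 35.4 CPM in papillae and 1.16 to 2.99 CPM in organoids (log2 fold change -3.04, SE 0.41, adjusted p = 0.000538), so it was detected in every organoid library but below every papilla. Of 12 type II genes 6 were lower, 0 higher and 6 not called (median -1.72). Their summed levels, in which abundant genes weigh most, overlapped (284 to 417 CPM in papillae and 230.3 to 369 CPM in organoids). All 8 genes of the list for the epithelium of taste buds in general were higher (median 2.29), with 6 called higher under pan-epithelial scaling. That list includes KRT8, which simple epithelia also express, so it is not specific to taste buds. Of 3 type I genes tested 3 were lower (median -2.91). Of 6 type III genes 4 were lower and 0 higher (median -3.65). In these lists 1 and 2 of the genes tested had at most 3 counts in a group.

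**Figure D1:**
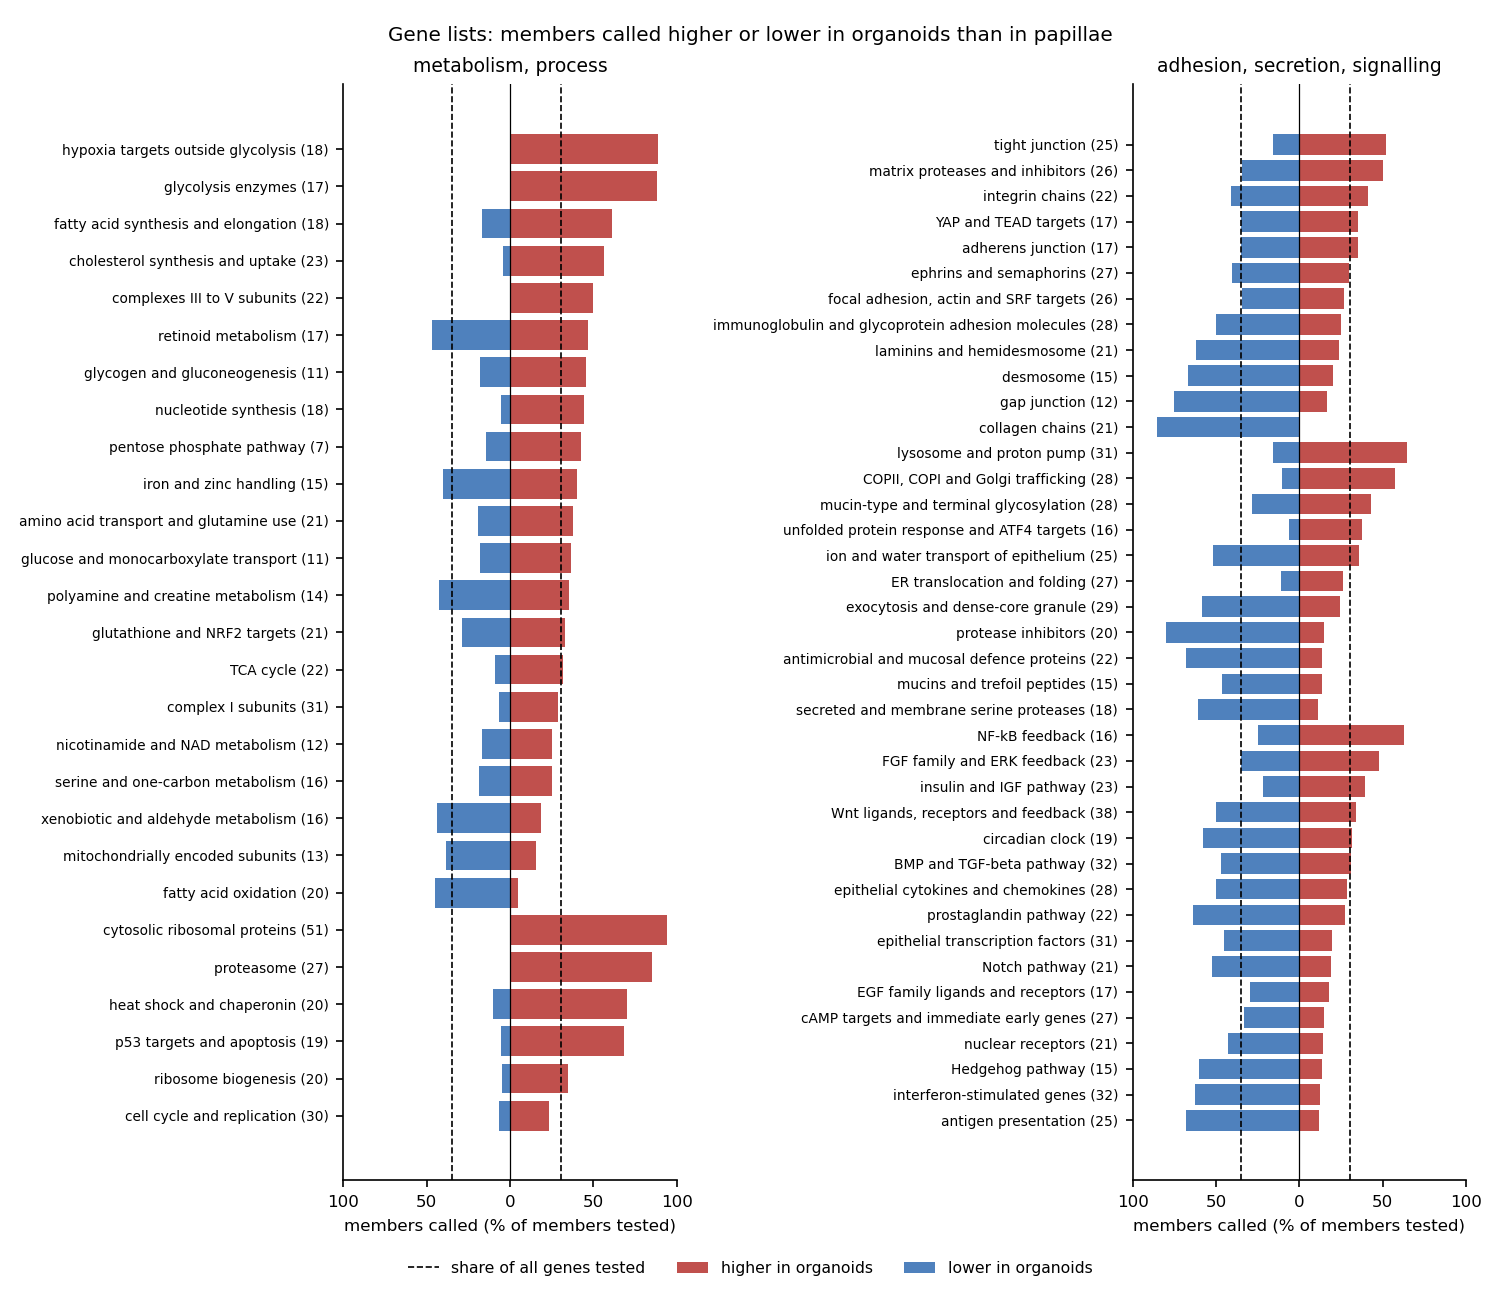
Share of the tested members of each gene list that were called higher (red, to the right) or lower (blue, to the left) in organoids than in papillae, in percent, with the number tested in brackets. Dashed lines mark the shares of all genes tested (30.4% and 35.1%); the lists of glycolysis, hypoxia, ribosomal proteins and the proteasome lie far to the right of them and had no member called lower, and the collagen list had none called higher. Under pan-epithelial scaling glycolysis and hypoxia each had 1 member called lower, and the proteasome 2.

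Genes of glucose breakdown were higher in organoids. Glycolysis splits glucose into pyruvate in the cytosol, and cells that lack oxygen or divide fast turn the pyruvate into lactate and export it. Of 17 glycolytic enzymes 15 were higher in organoids and 0 lower, with a median log2 fold change of 1.72 that stayed above 0 under all 4 other scalings (1.08 to 2.02). PGK1, which makes ATP in the second stage of the pathway (chromosome X, 62187472 to 62210321, Sscrofa11.1), was at 118, 142, 131, 117 and 122 CPM in papillae and 763, 555, 729, 949.7 and 1604 CPM in organoids. The lowest organoid library, of pig 2, lay above every papilla, and that of pig 5 was the highest (6.84-fold, log2 fold change 2.77, SE 0.27, adjusted p = 0.000113). PFKL, the liver-type phosphofructokinase at the committed step, rose 4.01-fold (from 100.1 ± 10.3 to 410.2 ± 106 CPM, adjusted p = 0.000101).

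Transporters of lactate and glucose changed by member. SLC16A3, the monocarboxylate transporter MCT4 that exports lactate (chromosome 12, 796882 to 807480), was at 2.59, 6.11, 11.7, 5.91 and 6.03 CPM in papillae and 156, 87.8, 160.2, 182 and 308 CPM in organoids. It was thus low in all papillae and rose 27.8-fold (log2 fold change 4.80, SE 0.39, adjusted p = 5.79e-05). SLC16A1, the related transporter MCT1, rose 2.25-fold (from 10.2 ± 3.01 to 23.2 ± 7.42 CPM) with overlap between the groups, and its call was lost under pan-epithelial scaling (adjusted p = 0.127). BSG, the chaperone of both transporters, was at 171 to 218 CPM in papillae and 250.0 to 295 CPM in organoids (log2 fold change 0.53), a value that was not called with TMM over genes expressed in organoids and became -0.11 under pan-epithelial scaling. SLC2A4, the insulin-regulated glucose transporter of muscle and fat, fell 17.0-fold, from 6.98, 2.56, 45.9, 13.5 and 10.9 CPM, and its highest papilla, of pig 3, was also the one with most muscle RNA (summed muscle markers 1611, 361, 10569, 2649 and 3786 CPM). The part of muscle in the fall of SLC2A4 was not tested. Over the whole list of glucose and monocarboxylate transporters 4 of 11 were higher and 2 lower, and the median of 0.36 became -0.28 under pan-epithelial scaling.

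Targets of the hypoxia-inducible factors outside glycolysis were also mostly higher. Of 18 members tested 16 were higher and 0 lower, with a median of 1.72 that stayed above 0 under all 4 other scalings. ADM, the vasodilator peptide adrenomedullin, was at 2.47, 3.01, 4.16, 3.69 and 2.95 CPM in papillae and 97.9, 114, 124, 68.6 and 308 CPM in organoids (38.1-fold, log2 fold change 5.25, SE 0.36, adjusted p = 2.85e-05). DDIT4, an inhibitor of the growth kinase mTORC1, was at 70.8, 43.6, 79.3, 69.3 and 55.3 CPM in papillae and 811, 687, 669, 664 and 1493 CPM in organoids (13.1-fold), and BNIP3L, a receptor for the removal of mitochondria, rose 2.69-fold. In each of these 3 genes the organoids of pig 5 had the highest value of the 5. Oxygen was not among the measurements.

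Storage and side branches of glucose metabolism were split. PGM1, which joins glycogen to glycolysis, rose 2.58-fold and GBE1, the glycogen branching enzyme, 3.36-fold. PYGM, the glycogen phosphorylase of muscle, was at 24.2, 6.67, 246, 56.3 and 102 CPM in papillae and 0, 0.164, 0.176, 0 and 0.624 CPM in organoids, and GYG1, the primer of glycogen, fell 4.16-fold. The order of PYGM over the papillae was that of the summed muscle markers, and the part of muscle in its fall was not tested. In the pentose phosphate pathway, which makes NADPH and ribose, the level of TALDO1 (transaldolase) went from 384 ± 27.4 to 191 ± 41.1 CPM (2.04-fold lower, log2 fold change -1.03, SE 0.14, adjusted p = 0.000629) and RPE rose 1.97-fold (adjusted p = 0.000288). RPE was no longer called under pan-epithelial scaling (log2 fold change 0.34).

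Mitochondrial genes showed no common direction. The citric acid cycle had 7 of 22 members higher and 2 lower (median 0.15, and -0.49 under pan-epithelial scaling), with SUCLG2, a succinyl-CoA ligase subunit, up 3.38-fold and SDHC, of succinate dehydrogenase, up 2.40-fold. OGDH, of the 2-oxoglutarate dehydrogenase complex, fell 1.497-fold, which was not called on library size alone (adjusted p = 0.204). Nuclear subunits of complex I had 9 higher and 2 lower of 31 (median 0.25, and -0.39 under pan-epithelial scaling), including NDUFA2 up 2.56-fold and NDUFS6 down 1.73-fold. Complexes III to V had 11 higher and 0 lower of 22 (median 0.52, and -0.12 under pan-epithelial scaling), such as COX6A1 at 89.9 to 109.8 CPM in papillae and 151 to 227 CPM in organoids. Of the 13 subunits encoded in mitochondrial DNA 2 were higher and 5 lower, and on library size alone 3 higher and 1 lower. CYTB, of complex III, was at 2237, 2547, 6568, 4291 and 3078 CPM in papillae and 1303, 1824, 1553, 1801 and 1573 CPM in organoids (2.155-fold lower, adjusted p = 0.00823). ND5, of complex I, was at 482, 514, 1541, 989 and 517 CPM in papillae and 1401, 1646, 1694, 2353 and 2546 CPM in organoids (2.62-fold higher, adjusted p = 0.00569), and ND6 lies beside it on the opposite strand, which counting without strand does not separate. The papilla of pig 3, with most muscle RNA, was the highest for the summed subunits, at 24406, 27265, 72495, 48548 and 33140.1 CPM in pigs 1 to 5, against 24553 to 37173 CPM in organoids, and the part of muscle in these results was not tested.

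Genes that burn and genes that build fatty acids had opposite counts. Of 20 genes of fatty acid oxidation 1 was higher and 9 lower (median -0.24, and 0.05 on library size alone), whereas 11 of 18 genes of fatty acid activation, synthesis and elongation were higher and 3 lower (median 1.17). CPT1B, the muscle form of the enzyme that admits fatty acids to mitochondria, was at 37.3, 43.3, 70.0, 54.9 and 31.3 CPM in papillae and 3.95, 2.30, 4.31, 4.12 and 2.66 CPM in organoids (13.5-fold lower, log2 fold change -3.75, SE 0.19, adjusted p = 8.35e-06). Unlike PYGM, CPT1B did not have the order of the summed muscle markers over the papillae, and the part of muscle was not tested. ACADL, the long-chain acyl-CoA dehydrogenase (chromosome 15, 112935631 to 112969381), was at 57.2, 50.5, 53.9, 51.2 and 53.2 CPM in papillae and 1.46, 4.63, 1.143, 6.34 and 2.59 CPM in organoids. It fell 19.2-fold (adjusted p = 0.000128). ACADM, the medium-chain enzyme, fell 3.71-fold, and ETFA, which passes electrons from these enzymes to the respiratory chain, was the 1 gene of the list that rose (1.90-fold, and not called under pan-epithelial scaling).

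ELOVL6, which elongates palmitate, was at 14.6, 16.7, 15.3, 11.9 and 14.3 CPM in papillae and 78.6, 131, 78.5, 244 and 175 CPM in organoids, with the organoids of pig 4 highest and a rise of 8.78-fold (log2 fold change 3.13, SE 0.32, adjusted p = 0.000142). ACSL4 and ACSL3, which activate fatty acids, rose 5.22-fold and 3.67-fold. ELOVL4, which makes the very long chains of barrier lipids, went the other way, from 54.2 ± 6.71 to 2.51 ± 1.21 CPM (22.99-fold), as did ACACB, an acetyl-CoA carboxylase that restrains oxidation (14.1-fold lower). In sterol metabolism 13 of 23 genes were higher and 1 lower (median 0.45, and -0.19 under pan-epithelial scaling). PMVK, a mevalonate pathway kinase, was the 1 gene that fell, at 25.3, 21.1, 22.6, 19.1 and 18.6 CPM in papillae and 3.74, 6.11, 3.30, 7.12 and 3.65 CPM in organoids (4.63-fold).

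Of 21 genes of amino acid transport and glutamine use 8 were higher and 4 lower (median 0.23, and -0.41 under pan-epithelial scaling). SLC38A1, a glutamine transporter, was at 2.97, 3.81, 3.75, 3.69 and 4.09 CPM in papillae and 38.7, 63.1, 41.4, 56.2 and 43.8 CPM in organoids (13.1-fold, log2 fold change 3.71, SE 0.16, adjusted p = 5.11e-06), and the spread within each group was small beside this difference. GLUL, glutamine synthetase, rose 4.34-fold (from 317 ± 96.9 to 1356 ± 385 CPM) and ASNS, asparagine synthetase, 3.58-fold. BCAT2, the mitochondrial branched-chain aminotransferase, fell 3.51-fold and GPT2, the mitochondrial alanine aminotransferase, 4.43-fold (from 219.7 ± 53.3 to 49.2 ± 10.1 CPM). MTHFD1L, of the mitochondrial folate pathway, rose 11.5-fold (from 2.69 ± 0.821 to 31.0 ± 9.51 CPM) and MTR, methionine synthase, fell 2.54-fold. Nucleotide synthesis had 8 of 18 higher and 1 lower (median 0.27), and 2 higher and 5 lower under pan-epithelial scaling (median -0.36). For purines, GMPS rose 3.02-fold and IMPDH1, the 1 gene that fell, fell 2.88-fold, consecutive enzymes of guanine nucleotide synthesis with opposite changes.

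In polyamine metabolism SMS, spermine synthase, was at 10.1, 13.4, 13.8, 14.3 and 13.5 CPM in papillae and 150.1, 67.5, 111, 80.6 and 153 CPM in organoids (8.22-fold), ODC1, the rate-limiting enzyme, rose 3.48-fold, and SAT1, which breaks polyamines down, rose 6.56-fold. GATM, of creatine synthesis, fell 6.36-fold and CKM, the creatine kinase of muscle, had 30.5 to 1359 CPM in papillae and 0.0440 to 0.163 CPM in organoids. The medium held nicotinamide, a precursor of NAD. CD38, which consumes NAD, was at 0.618, 0.601, 0.609, 0.700 and 0.737 CPM in papillae and 4.56, 9.27, 18.8, 76.2 and 59.8 CPM in organoids, 33.8-fold higher (adjusted p = 0.000252), with the organoids of pigs 4 and 5 far above the rest, and NADK, which makes NADP, rose 2.48-fold. Over the NAD list 3 of 12 genes were higher and 2 lower (median -0.04, and 0.24 on library size alone).

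Detoxification, retinoid and iron genes also differed by member. GSR, glutathione reductase, rose 3.46-fold and SOD1, the cytosolic superoxide dismutase, 2.05-fold, while the glutathione transferase GSTM3 fell 6.14-fold. Of 21 glutathione and NRF2 target genes 7 were higher and 6 lower (median -0.10, and 0.19 on library size alone), shares near those of all genes. FMO2, a flavin monooxygenase, went from 138 ± 36.4 to 0.834 ± 0.494 CPM (170.2-fold lower), and SULT2B1, which sulfates cholesterol in maturing keratinocytes, fell 5.41-fold. DHRS3, which returns retinaldehyde to retinol, was at 111, 91.6, 98.9, 95.5 and 149.7 CPM in papillae and 609, 811, 908, 427 and 696 CPM in organoids (6.21-fold), RARB, a retinoic acid receptor that is itself induced by retinoic acid, rose 6.33-fold, and ALDH1A1, a retinaldehyde dehydrogenase, 2.57-fold. RDH12, a retinal reductase, went from 29.0 ± 7.89 to 0.199 ± 0.145 CPM. LCN2, which binds iron-carrying siderophores, was at 50.4, 92.4, 70.1, 27.9 and 137 CPM in papillae and 622, 1332, 1238, 454 and 1313 CPM in organoids (13.7-fold, log2 fold change 3.78, SE 0.19, adjusted p = 8.61e-06), FTL, the ferritin light chain, rose 3.38-fold, and TF, transferrin, which glands and glia also make, fell 82.8-fold.

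**Figure D2:**
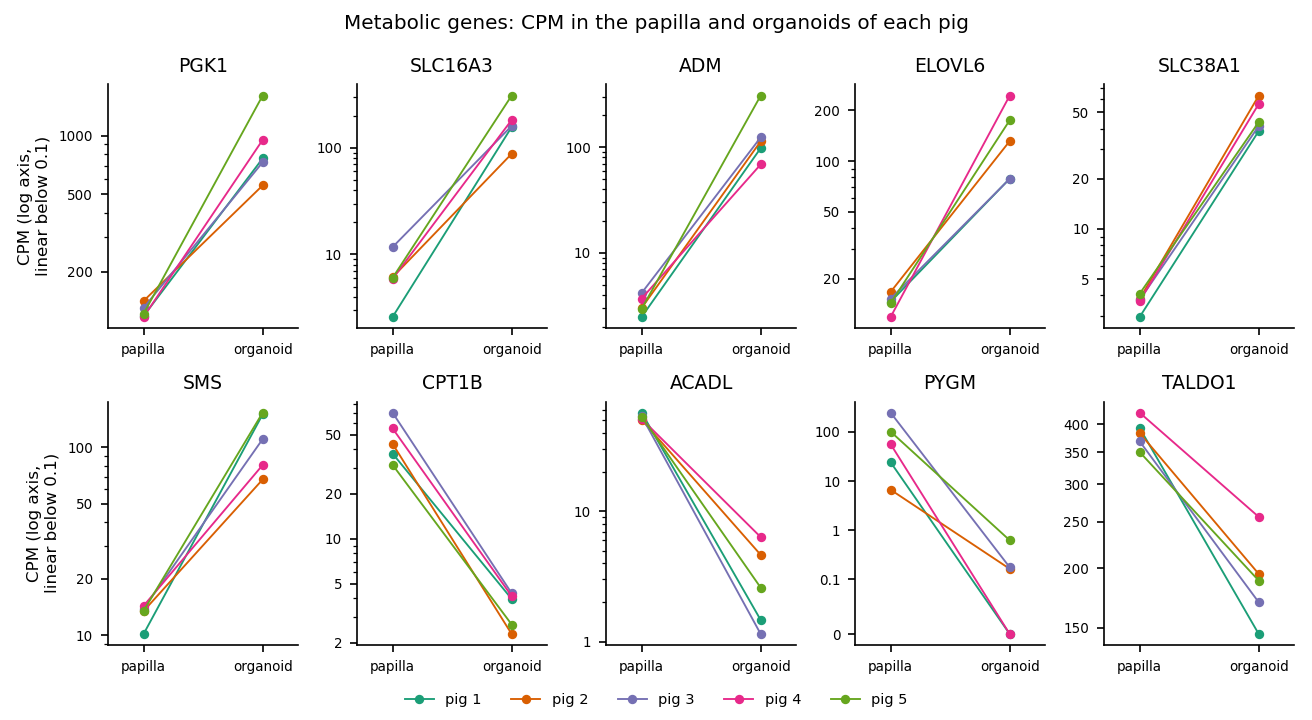
CPM (log axis, linear below 0.1) of 10 metabolic genes in the papilla and the organoids of each pig, 1 line per pig. The 6 genes PGK1, SLC16A3, ADM, ELOVL6, SLC38A1 and SMS were higher in all 5 pigs and CPT1B, ACADL, PYGM and TALDO1 lower in all 5, with no overlap between papillae and organoids in any of the 10.

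Genes of adhesion to the matrix included laminin chains of epithelial basement membranes. LAMB3 (chromosome 9, 133298009 to 133351162) was at 133, 119, 91.7, 81.5 and 119.8 CPM in papillae and 587, 530.2, 555, 311 and 374 CPM in organoids (log2 fold change 2.09, SE 0.17, adjusted p = 5.49e-05), with no overlap. It rose 4.27-fold, and LAMA3 was at 58.9 to 108 CPM in papillae and 98.0 to 179.8 CPM in organoids (log2 fold change 0.61), which became -0.03 under pan-epithelial scaling. In fits without the block, where it was called with all 10 libraries, its call was lost without the papilla of pig 1, 2 or 3 (adjusted p = 0.0670, 0.0656 and 0.0740) or the organoids of pig 4 or 5 (adjusted p = 0.0698 and 0.0707). LAMA2, the laminin chain of muscle and nerve basement membranes, had 3614 counts over the 5 papillae and 1 over the 5 organoid libraries, a ratio of 5493 (exact 95% interval 985 to 217035). Over laminins and hemidesmosome genes 5 of 21 were higher and 13 lower (median -0.86), among the lower ones LAMA2.

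Integrins split evenly, with 9 of 22 chains higher and 9 lower (median -0.05, and 0.23 on library size alone). ITGB6, the beta chain of an epithelial integrin known for activating latent TGF-beta, was at 2.97, 6.67, 6.64, 6.17 and 5.70 CPM in papillae and 68.7, 84.3, 94.99, 38.1 and 95.5 CPM in organoids (13.3-fold, log2 fold change 3.74, SE 0.27, adjusted p = 3.84e-05). ITGA2 (collagen receptor), ITGA3 (laminin receptor) and the hemidesmosomal pair ITGA6 and ITGB4 rose 4.53-fold, 5.38-fold, 4.16-fold and 2.47-fold. ITGA5, of the fibronectin receptor, was at 51.7, 56.9, 48.9, 42.9 and 31.2 CPM in papillae and 1.139, 0.246, 1.06, 0.205 and 0.591 CPM in organoids (76.8-fold lower), a level near 0 in organoids. No collagen chain was called higher, and 18 of 21 were lower (median -4.10). COL6A3, of microfibrils, went from 165 ± 80.5 to 0.0890 ± 0.0728 CPM and COL16A1 from 154 ± 27.9 to 1.498 ± 0.464 CPM, beside the loss of fibroblast markers given above.

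Junctions between cells changed composition. In desmosomes, which anchor keratin filaments, 3 of 15 genes were higher and 10 lower (median -1.09), beside the fall of the suprabasal and cornified list given above, whose part in the result was not tested. DSG2, the desmoglein of simple and basal epithelia (chromosome 6, 115400223 to 115453763), was at 20.8, 13.1, 12.4, 14.3 and 21.2 CPM in papillae and 153, 125, 174, 84.0 and 125 CPM in organoids, and DSG1, the desmoglein of upper layers of stratified epithelium (chromosome 6, 115237836 to 115272944), was at 251, 201, 188, 222 and 207 CPM in papillae and 0.977, 0.205, 0.924, 0.307 and 0.460 CPM in organoids. Per kilobase of the deposited gene length, the mean level of DSG1 was 66.6 CPM in papillae and 0.179 in organoids, and that of DSG2 3.18 and 25.7, so DSG1 was the more abundant in papillae and DSG2 in organoids. The fit had DSG2 8.05-fold higher (SE of log2 0.21) and DSG1 395-fold lower (SE of log2 0.37). The plakophilins, which tie desmogleins to the plaque, moved in the same 2 directions. PKP2 was at 13.04, 7.92, 4.46, 5.28 and 11.2 CPM in papillae and 81.8, 92.5, 100.3, 88.5 and 103 CPM in organoids (11.9-fold higher) and PKP1 at 1962, 1884, 1615, 1542 and 1351 CPM in papillae and 141, 55.1, 128, 39.7 and 43.9 CPM in organoids (23.6-fold lower). EVPL, envoplakin of the cornified envelope, fell 7.18-fold and DSP, desmoplakin, 3.28-fold.

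Adherens junctions had 6 genes higher and 6 lower of 17 (median 0.06, -0.17 with TMM over genes expressed in organoids, and -0.58 with 4 higher and 8 lower under pan-epithelial scaling). Under DESeq2's size factors the median was also just below 0. CDH1, E-cadherin, was at 566, 506, 416, 367 and 483 CPM in papillae and 1453, 1800.0, 1379, 947 and 1090.1 CPM in organoids (2.81-fold, adjusted p = 0.000228), and CDH3, P-cadherin of basal cells, rose 4.06-fold. CDH5, the cadherin of endothelium, had 3649 counts over the 5 papillae and 1 over the 5 organoid libraries, a ratio of 5547 (exact 95% interval 995 to 219136). Tight junctions, which seal the space between cells, had 13 of 25 genes higher and 4 lower, and the median of 1.03 stayed above 0 under all 4 other scalings, with 11 higher and 8 lower under pan-epithelial scaling. MARVELD2, tricellulin of the corners where 3 cells meet, was at 15.6, 10.1, 8.27, 12.1 and 13.9 CPM in papillae and 87.2, 78.9, 81.3, 62.2 and 73.2 CPM in organoids (6.49-fold). LSR, which recruits it there, rose 5.45-fold and MARVELD3 5.27-fold. Among the genes that fell were CLDN5, the claudin of endothelium (168-fold), and CLDN17, which had 2971 counts over the 5 papillae and 0 over the 5 organoid libraries, at least 1505-fold lower.

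Gap junction channels were mostly lower (9 of 12, with 2 higher, median -2.42). GJB6, connexin 30 of stratified epithelium, was at 202, 141, 173, 100.2 and 75.0 CPM in papillae and 11.8, 12.8, 15.1, 9.68 and 9.79 CPM in organoids (11.14-fold lower, log2 fold change -3.48, SE 0.18, adjusted p = 1.01e-05). GJA1, connexin 43, was at 67.3 to 102 CPM in papillae and 89.4 to 150.3 CPM in organoids with overlap, and its call was lost with 3 of the other settings, among them pan-epithelial scaling, where its log2 fold change of 0.52 became -0.11. PANX1, a channel that releases ATP, rose 2.45-fold and was not called under that scaling (adjusted p = 0.0995). Of surface adhesion molecules, ALCAM rose 3.85-fold (from 72.3 ± 15.9 to 276 ± 39.4 CPM) and SDC4, a heparan sulfate proteoglycan of focal adhesions, 6.55-fold.

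The cytoskeleton and the proteases around the cell also differed. CNN2, calponin 2, which binds actin, rose 3.99-fold, and ACTA2, the actin of smooth muscle, had 323 to 569 CPM in papillae and 0 to 0.123 CPM in organoids. The medium held an inhibitor of ROCK, a kinase of actomyosin contraction. CYR61, a matrix protein and target of YAP, was at 31.2, 35.8, 28.3, 29.6 and 34.2 CPM in papillae and 239, 378, 307, 206 and 279 CPM in organoids (8.70-fold, log2 fold change 3.12, SE 0.15, adjusted p = 7.46e-06), F3, tissue factor, rose 4.21-fold, and AXL, a receptor kinase, fell 21.8-fold. The whole list of YAP and TEAD targets had 6 higher and 6 lower of 17 (median 0.31, and -0.33 under pan-epithelial scaling). PLAU, the urokinase that activates plasmin, was at 13.5, 13.03, 16.9, 14.1 and 12.7 CPM in papillae and 184, 341, 233, 288 and 211 CPM in organoids (17.5-fold, log2 fold change 4.13, SE 0.19, adjusted p = 6.12e-06). ADAM9 and ADAM10, which shed surface proteins such as growth factors and cadherins, rose 18.6-fold (from 25.6 ± 8.42 to 465 ± 106 CPM) and 7.99-fold. MMP2, a gelatinase made mainly by stroma, went from 150.2 ± 72.6 to 2.12 ± 2.44 CPM. Guidance receptors were mixed, with EPHB4 up 3.93-fold, NRP2 up 3.98-fold and EPHB2 down, at 8.37 to 14.3 CPM in papillae and 0 to 0.0880 CPM in organoids.

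**Figure D3:**
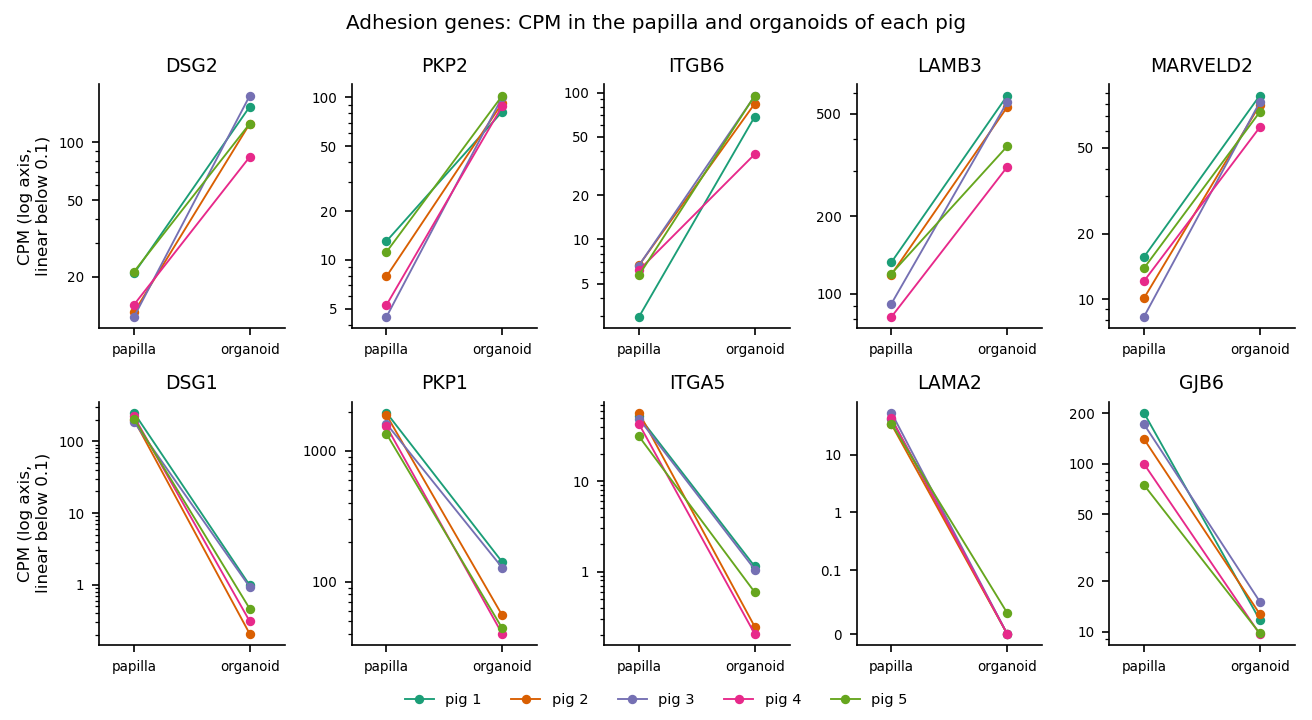
CPM (log axis, linear below 0.1) of 10 adhesion genes in the papilla and the organoids of each pig, 1 line per pig. The upper row (DSG2, PKP2, ITGB6, LAMB3, MARVELD2) rose in all 5 pigs and the lower row (DSG1, PKP1, ITGA5, LAMA2, GJB6) fell in all 5. Every organoid library lay above every papilla in the upper row and below every papilla in the lower row.

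Many secreted products were lower in organoids. Mucins form the mucus gel or coat the cell surface, and 2 of 15 mucin and trefoil genes were higher and 7 lower (median -1.43). MUC13, a transmembrane mucin of gut and airway epithelium (chromosome 13, 135416709 to 135446337), was at 0.185, 0.902, 0.152, 0.191 and 0.0670 CPM in papillae and 47.5, 192, 36.0, 131 and 47.6 CPM in organoids. It was close to 0 in every papilla and rose 304-fold (log2 fold change 8.25, SE 0.27, adjusted p = 2.52e-06), 1 of the 8 largest rises among abundant genes. MUC20 rose 3.44-fold with overlap, and MUC19, a gel-forming mucin of salivary glands, went from 84.1 ± 69.9 to 0.155 ± 0.0698 CPM. Antimicrobial and mucosal defence proteins had 3 of 22 higher and 15 lower (median -3.67), and the BPIF family among them holds similar copies whose counts are uncertain.

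DEFB1, a beta-defensin that epithelia make constitutively, was at 301, 237, 147, 208 and 113 CPM in papillae and 0.163, 0.861, 0.176, 0.102 and 0.0657 CPM in organoids (820.0-fold lower, log2 fold change -9.68, SE 0.46, adjusted p = 7.21e-06). LPO, lactoperoxidase of saliva, had 11680 counts over the 5 papillae and 1 over the 5 organoid libraries, a ratio of 17754 (exact 95% interval 3186 to 701298). The 3 that rose were LCN2, given above, WFDC2 (3.70-fold, from 275 ± 86.6 to 1008 ± 311 CPM) and SLPI, the secretory leukocyte protease inhibitor. SLPI was at 18.03 to 72.9 CPM in papillae and 36.1 to 108 CPM in organoids with overlap (log2 fold change 0.92, adjusted p = 0.0438) and was not called in 15 of the 24 other settings, including the fit without the block (adjusted p = 0.0628) and those without pig 2 or pig 3 (adjusted p = 0.1 and 0.0693). Leaving out any single library except the papilla of pig 3 or the organoids of pig 1, in fits without the block, gave no call for SLPI either.

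Proteases on the epithelial surface and their inhibitors were mostly lower. Of 18 serine proteases 2 were higher and 11 lower, and of 20 inhibitors 3 were higher and 16 lower. ST14, matriptase, and TMPRSS4, both anchored in the membrane, rose 3.73-fold and 6.76-fold, and SPINT1 and SPINT2, the membrane inhibitors of matriptase, 4.49-fold and 3.38-fold. SPINT1 was at 205, 218, 176, 135 and 153 CPM in papillae and 1096, 909, 1223, 442 and 546 CPM in organoids. The kallikreins KLK12 and KLK13, which shed cells from the surface of stratified epithelium, went from 95.8 ± 50.1 to 0.827 ± 1.06 CPM and from 60.5 ± 26.1 to 1.12 ± 1.26 CPM, and SERPINB12 fell, at 56.7 to 85.9 CPM in papillae and 0 to 0.123 CPM in organoids.

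The secretory pathway had other counts than its products. COPII, COPI and Golgi genes, whose proteins carry cargo out of the endoplasmic reticulum, had 16 higher and 3 lower of 28 (median 0.60, and -0.04 under pan-epithelial scaling), with SEC23A up 2.57-fold and COPB1 up 2.25-fold. CREB3L2, a factor that drives secretory genes, fell 3.04-fold. For translocation and folding in the endoplasmic reticulum 7 of 27 were higher and 3 lower (median 0.30, and -0.34 under pan-epithelial scaling). CANX, calnexin, rose 2.08-fold, whereas SDF2L1 and CRELD2, folding factors induced by secretory load, fell 5.29-fold and 4.03-fold (from 150.1 ± 52.4 to 35.8 ± 5.58 CPM). ATF6, a sensor of unfolded protein, rose 3.83-fold.

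Glycosylation genes differed in both directions. ST3GAL4, a sialyltransferase (chromosome 9, 53442795 to 53491847), was at 222, 188, 227, 247 and 212 CPM in papillae and 0.285, 0.902, 0.220, 1.02 and 0.591 CPM in organoids, 373-fold lower (log2 fold change -8.54, SE 0.38, adjusted p = 5.84e-06), and ST3GAL1, which caps mucin-type glycans, was at 17.2, 19.6, 16.8, 14.7 and 14.9 CPM in papillae and 152, 129.9, 133, 84.0 and 76.1 CPM in organoids, 6.70-fold higher (log2 fold change 2.74, SE 0.15, adjusted p = 1.20e-05). FUT8, which adds the core fucose of N-glycans, rose 8.46-fold. Genes of exocytosis and dense-core granules, which include neuronal and endocrine genes, had 7 higher and 17 lower of 29. SYTL1, a granule tether of gland and blood cells, fell 3.56-fold and STX3, a syntaxin of the apical membrane, rose 2.00-fold, the latter not called under pan-epithelial scaling. SCG2, of dense-core granules, was at 10.6 to 41.3 CPM in papillae and 0 to 0.0440 CPM in organoids.

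Ion and water transport, which drives fluid secretion, showed wide differences in both directions (9 higher and 13 lower of 25). SLC12A2, the basolateral NKCC1 cotransporter that loads cells with chloride (chromosome 2, 131016430 to 131109307), was at 100.4, 39.7, 45.9, 54.6 and 114 CPM in papillae and 804, 1328, 885, 798 and 816 CPM in organoids (13.96-fold, log2 fold change 3.80, SE 0.37, adjusted p = 0.000117). SLC4A4, a bicarbonate cotransporter, was at 6.36, 4.66, 4.41, 6.55 and 8.58 CPM in papillae and 143, 121, 154, 77.6 and 94.0 CPM in organoids (19.2-fold), and in both genes every organoid library lay above every papilla. AQP3, the water and glycerol channel of stratified epithelium, was at 868, 1085, 839, 782 and 825 CPM in papillae and 9.64, 28.3, 62.2, 4.23 and 16.8 CPM in organoids (52.9-fold lower). GABRP, the pi subunit of the GABA-A receptor, a chloride channel, was among the 8 largest rises, at 23.4, 35.2, 12.2, 14.3 and 20.3 CPM in papillae and 847, 2839, 936, 1869 and 1659 CPM in organoids (75.2-fold).

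Of 31 lysosomal genes 20 were higher and 5 lower (median 0.87), and 12 higher and 11 lower under pan-epithelial scaling (median 0.24). The hydrolases GUSB and CTSC rose 5.97-fold and 4.22-fold, with GUSB at 24.7, 27.7, 23.3, 20.4 and 34.6 CPM in papillae and 127, 182, 143, 166 and 155 CPM in organoids. TFEB, a transcription factor known for driving lysosomal genes, was at 45.8, 51.9, 61.02, 44.2 and 39.6 CPM in papillae and 13.2, 6.68, 10.2, 2.11 and 4.80 CPM in organoids and fell 7.58-fold.

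Signalling was read from ligands, receptors and feedback genes. EGF, a ligand supplied in the medium, signals through receptors of the ERBB family to ERK, and ERK induces its own inhibitors. The gene EGF itself, which salivary ducts and glands express, went from 54.7 ± 41.2 to 0.578 ± 0.302 CPM (86.1-fold lower). TGFA, the autocrine ligand of the same receptor, was at 6.24, 7.02, 5.33, 5.53 and 7.04 CPM in papillae and 69.7, 77.7, 93.2, 39.9 and 56.7 CPM in organoids (10.5-fold, log2 fold change 3.39, SE 0.21, adjusted p = 1.92e-05), and ERRFI1, a feedback inhibitor of the receptor, rose 2.46-fold. NRG2, a ligand of other ERBB receptors, fell 10.2-fold. Of 23 genes of the FGF family and ERK feedback 11 were higher and 8 lower (median 0.01, and -0.65 under pan-epithelial scaling). The feedback inhibitors SPRED1 and DUSP4 rose 4.09-fold and 6.54-fold, and FGFBP1, which releases FGF from matrix, rose 7.43-fold (from 79.2 ± 29.9 to 556 ± 55.2 CPM). FGF7, a ligand made by stroma, had 383 counts over the 5 papillae and 1 over the 5 organoid libraries, a ratio of 582 (exact 95% interval 104 to 23054).

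The Wnt list, in a medium with Wnt3a, R-spondin 2 and a GSK3 inhibitor, had 13 of 38 genes higher and 19 lower. WNT5B, a ligand of the branch without beta-catenin, was at 10.4, 11.8, 10.8, 8.52 and 12.5 CPM in papillae and 77.0, 174, 157, 126 and 128 CPM in organoids (11.9-fold, log2 fold change 3.58, SE 0.19, adjusted p = 1.09e-05), and WNT10B, a ligand of the beta-catenin branch, was at 9.82, 16.4, 11.6, 12.1 and 13.7 CPM in papillae and 0.814, 1.27, 0.924, 0.409 and 1.02 CPM in organoids (14.7-fold lower). FZD7, a receptor, rose 7.26-fold (from 49.4 ± 9.21 to 363 ± 87.5 CPM), and WIF1, a secreted inhibitor, fell from 99.2, 22.8, 10.2, 21.4 and 11.9 CPM to 0 to 0.164 CPM. The papilla of pig 1 stood above the others for WIF1.

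SHH was in the medium as protein, and its gene was expressed by the cells. SHH (chromosome 18, 2546202 to 2555484) was at 0, 3.41, 14.3, 8.01 and 7.64 CPM in papillae and 93.6, 34.3, 73.0, 29.0 and 145 CPM in organoids, with no count in the papilla of pig 1 (12.2-fold, log2 fold change 3.61, SE 0.89, adjusted p = 0.00861). GLI1, a target of the pathway, went the other way, at 2.10, 14.9, 13.04, 10.4 and 8.78 CPM in papillae and 0.0407, 0.0410, 0, 0.102 and 0.0657 CPM in organoids. The papilla of pig 1 was also the lowest for GLI1. Of 15 pathway genes 9 were lower in organoids and 2 higher. Stromal cells respond to SHH as well, and the part of the lower fibroblast markers given above was not tested. Leaving out pig 1 left SHH and GLI1 called (adjusted p = 0.00104 and 0.000105).

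The Notch pathway had 4 of 21 higher and 11 lower. Its ligand JAG1 rose 2.20-fold and HES6, a factor of neuroendocrine and taste lineages, 2.05-fold, and HES2 fell 44.3-fold (from 23.4 ± 2.62 to 0.533 ± 0.219 CPM). The medium blocked BMP with noggin and TGF-beta receptors with A-83-01, and 10 of 32 genes were higher and 15 lower, with 13 higher and 13 lower on library size alone. The receptors BMPR2 and TGFBR1 rose 4.07-fold and 2.78-fold. Among the lower genes, ID4, induced by BMP, was at 127, 129, 113, 153 and 164 CPM in papillae and 15.1, 11.5, 16.0, 6.07 and 14.03 CPM in organoids (11.3-fold), and SMAD7, the feedback inhibitor, was at 29.2, 36.2, 36.1, 28.8 and 24.3 CPM in papillae and 7.203, 5.25, 7.92, 3.61 and 2.99 CPM in organoids (6.05-fold). The rule for named genes takes called members, so ID4 and SMAD7 do not speak for other targets of these pathways. The part of the inhibitors was not tested.

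IGF2, a growth factor made largely by mesenchyme, went from 224 ± 26.4 to 0.248 ± 0.182 CPM (939.6-fold lower), and IGF2R, which clears it, rose 2.7-fold. For prostaglandins and related lipids 6 of 22 genes were higher and 14 lower (median -3.23). PTGES, which makes prostaglandin E2, was at 29.4, 42.5, 31.8, 20.2 and 20.7 CPM in papillae and 144, 250.1, 142, 261 and 357 CPM in organoids (7.73-fold), ALOX15, a lipoxygenase, was at 0.989, 0.802, 2.43, 0.509 and 1.34 CPM in papillae and 109, 16.2, 22.9, 12.3 and 52.9 CPM in organoids with the organoids of pig 1 highest, and PTGDS, which makes prostaglandin D2, fell 37.2-fold. Of 27 cAMP targets and immediate early genes 4 were higher and 9 lower (median -0.04, and 0.25 on library size alone). PDE4B, a phosphodiesterase that degrades cAMP, rose 7.85-fold (from 9.41 ± 1.56 to 75.4 ± 21.2 CPM). Among immediate early genes EGR1 rose 3.76-fold with overlap and FOSB fell 19.6-fold. Of 19 clock genes 6 were higher and 11 lower (median -0.86). NFIL3 and BHLHE40 rose 11.15-fold and 4.26-fold and PER3 fell 4.50-fold, and the hour of sampling is not stated in the labels.

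Immune genes were mostly lower, beside the loss of immune cell markers given above. Interferon-stimulated genes had 4 of 32 higher and 20 lower (median -1.66), with HERC6 down 20.1-fold (from 19.8 ± 4.28 to 0.965 ± 0.123 CPM). Antigen presentation had 17 of 25 lower. CD74, the class II chaperone of antigen-presenting cells, went from 418 ± 57.0 to 5.07 ± 1.66 CPM, and the class I gene SLA-6 rose 4.65-fold, in a family of similar copies. Of 16 NF-kB feedback genes 10 were higher and 4 lower, and 5 higher and 5 lower under pan-epithelial scaling, with RELB up 2.58-fold and NFKBIZ down 3.09-fold. Of 28 genes in the list of epithelial cytokines and chemokines 8 were higher and 14 lower, so more of them fell than rose. LIF (from 1.58 ± 0.258 to 24.9 ± 7.08 CPM) rose 15.3-fold and IL18 (from 1.54 ± 0.584 to 23.4 ± 5.16 CPM) 15.4-fold. CXCL2 (from 8.995 ± 2.12 to 73.7 ± 26.4 CPM) rose 7.94-fold. CXCL12, made by stroma, had 44.4 to 69.3 CPM in papillae and 0 to 0.0657 CPM in organoids.

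Transcription factors of the epithelium fell more often than they rose (14 lower and 6 higher of 31). ELF3, a factor of glandular and simple epithelia, was at 117, 158, 70.9, 59.2 and 79.9 CPM in papillae and 679.8, 1063, 922, 595 and 1128 CPM in organoids (9.36-fold). SOX9 rose 5.11-fold and SOX2, a factor of taste progenitors, 4.05-fold, with its highest value in the organoids of pig 1 (490.3, 192, 323, 171 and 265 CPM). FOXN1, of maturing keratinocytes, fell, at 14.8 to 26.4 CPM in papillae and 0 to 0.122 CPM in organoids, and PAX1 was at 484, 301, 387, 386 and 498 CPM in papillae and 67.5, 23.8, 60.7, 4.91 and 26.5 CPM in organoids, with pig 4 lowest among organoids. Of 21 nuclear receptors 3 were higher and 9 lower (median -0.18, and 0.11 on library size alone). HNF4G, known from gut epithelium, was among the higher ones and rose 13.6-fold (from 1.755 ± 0.888 to 22.5 ± 4.16 CPM).

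**Figure D4:**
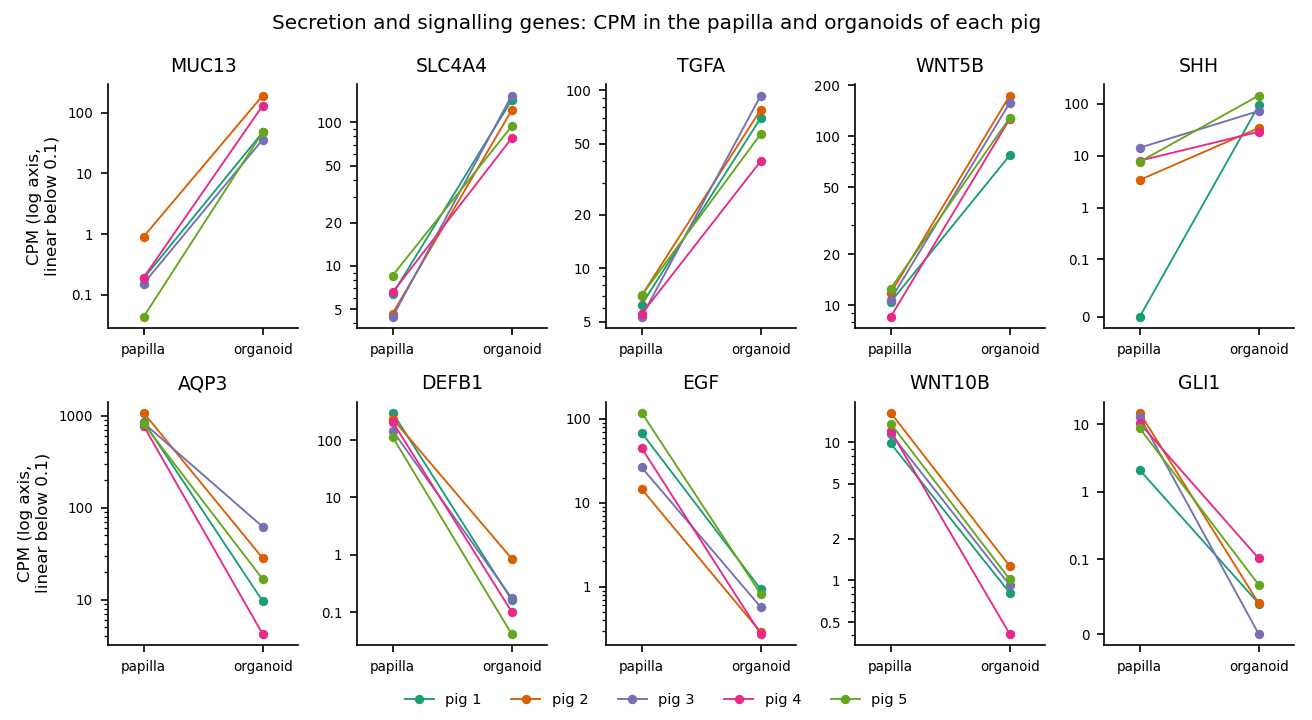
CPM (log axis, linear below 0.1) of 10 secretion and signalling genes in the papilla and the organoids of each pig, 1 line per pig. MUC13, SLC4A4, TGFA, WNT5B and SHH rose in all 5 pigs and AQP3, DEFB1, EGF, WNT10B and GLI1 fell in all 5; the papilla of pig 1 had 0 CPM for SHH and the lowest value for GLI1.

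Of 51 cytosolic ribosomal protein genes 48 were higher and 0 lower, by a median log2 of 0.87 that stayed above 0 under all 4 other scalings, though with 10 called higher under pan-epithelial scaling. RPS16 was at 345, 392, 399, 384 and 441 CPM in papillae and 1169, 928, 1105, 877 and 1412 CPM in organoids. The proteasome had 23 of 27 higher and 0 lower (median 0.63, and -0.01 with 0 called higher under pan-epithelial scaling), such as PSMC6 at 34.7 to 49.9 CPM in papillae and 81.9 to 117 CPM in organoids. Chaperones had 14 of 20 higher (and 4 higher and 4 lower under pan-epithelial scaling), with HSP90AB1 up 4.25-fold and the chaperonin subunit CCT2 up 2.83-fold, and 2 lower, of which HSPB1, a small heat shock protein of stratified epithelium, fell 7.57-fold (from 1203 ± 151 to 167 ± 59.5 CPM). NPM1, of the nucleolus, rose 3.08-fold.

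Targets of p53, a factor activated by DNA damage and other stress, were listed together with apoptosis genes. Of 19 genes of this joint list 13 were higher and 1 lower, with a median of 1.79 that stayed above 0 under all 4 other scalings. BAX, which permeabilizes mitochondria in apoptosis, was at 20.5, 24.9, 21.8, 19.7 and 19.9 CPM in papillae and 108, 117, 115, 95.03 and 109 CPM in organoids (5.11-fold, log2 fold change 2.35, SE 0.10, adjusted p = 5.47e-06). RRM2B, a ribonucleotide reductase subunit, was at 11.2, 6.82, 12.3, 12.2 and 12.7 CPM in papillae and 91.4, 108, 116, 88.5 and 145 CPM in organoids (9.98-fold). CCNG1 rose 5.83-fold and CDKN1A, the cell cycle inhibitor p21, 3.41-fold, with the lowest organoid value in pig 4 (577, 431, 648, 181 and 348 CPM). GDF15, a stress cytokine and p53 target, was among the 8 largest rises, at 0.185, 0.150, 0, 0.191 and 0.134 CPM in papillae and 22.2, 28.4, 29.9, 10.7 and 9.76 CPM in organoids.

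The other large rises came from several functions. PADI3, which converts arginine to citrulline in hair and cornified proteins, was at 0.185, 0.301, 0, 0.0636 and 0.0670 CPM in papillae and 62.4, 44.0, 65.4, 33.4 and 17.8 CPM in organoids. CD70, a ligand of the TNF family, was at 0.0636 to 0.432 CPM in papillae and 17.8 to 34.9 CPM in organoids, and IGSF23, of the immunoglobulin superfamily, was at 0.309 to 1.27 CPM in papillae and 54.1 to 96.5 CPM in organoids. The 8 largest falls included MYH2, given above, and products of glands and of cornified layers. BPIFA2, a salivary protein, had 12432 to 82705 CPM in papillae and 0 to 0.0657 CPM in organoids, and LOR, loricrin of the cornified envelope, had 133262 counts over the 5 papillae and 0 over the 5 organoid libraries, at least 67520.3-fold lower. Per kilobase, the nuclear genes most abundant in organoids included C7H6orf15, at 1355, 596, 1270.2, 611 and 1074 CPM in papillae and 5277, 3517, 5614, 1596 and 5921 CPM in organoids, whose function is not described here.

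The spread among libraries was wider in organoids than in papillae, as a description with no test. The median SD of log2 CPM over the 5 libraries was 0.265 in organoids (5915 genes with a mean log2 CPM of at least 5) and 0.185 in papillae (5758 genes), and leaving out each library in turn gave 0.218 to 0.271 and 0.167 to 0.190. The value of 0.218 was that without the organoids of pig 4. These organoids were the library farthest from the median in 42.5% of the 5915 genes, against 11.3 to 20.8% for the other four organoid libraries.

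Pig 4 stood out in cell division. Of 30 cell cycle and replication genes 7 were higher in organoids than in papillae and 2 lower (median 0.22). Under pan-epithelial scaling 4 were higher and 4 lower (median -0.44). The 26 cell cycle and replication genes with a mean log2 CPM of at least 3 in organoids lay on average 1.43 above the 5-library mean in pig 4, 20 of them above it, and -0.91 and -0.66 from it in pigs 1 and 3, on the log2 scale. MKI67, the marker of cycling cells, was at 47.6, 50.2, 38.6, 33.9 and 42.0 CPM in papillae and 4.60, 28.1, 6.95, 283 and 32.9 CPM in organoids (log2 fold change -0.94, adjusted p = 0.382), so organoids lay on both sides of papillae and no direction was called. PLK1, a mitotic kinase, was at 57.4, 42.0, 45.2, 36.6 and 43.9 CPM in papillae and 3.09, 12.5, 9.68, 66.1 and 9.69 CPM in organoids and was called lower with the block (adjusted p = 0.0321) but not without it (adjusted p = 0.131), nor without pig 1, 2, 3 or 5 (adjusted p = 0.0606, 0.0749, 0.0905 and 0.0944). TYMS, thymidylate synthase, was at 21.7, 21.8, 23.9, 23.02 and 25.8 CPM in papillae and 41.6, 62.6, 45.8, 144 and 77.7 CPM in organoids and was higher in every organoid library (2.87-fold). CCND2, a cyclin of early G1, was lowest in the organoids of pig 4, at 40.9, 40.1, 40.1, 31.4 and 41.7 CPM in organoids against 5.70 to 9.09 CPM in papillae. Over list genes at the same level, the organoids of pig 4 also had the lowest mean of many other lists and the highest of some. The low ones included desmosome (-0.68), immediate early (-0.63), ribosomal protein (-0.31), pan-epithelial (-0.28) and unfolded protein response lists (-0.69, with pig 5 at -0.59). The high ones included nucleotide synthesis (0.79) and cholesterol synthesis and uptake (0.65). Without pig 4, 10277 genes were called.

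Pig 5 stood out in the hypoxia list, whose 18 genes lay on average 0.80 above the organoid mean. The 16 glycolytic enzymes with a mean log2 CPM of at least 3 in organoids lay at 0.65. In pig 2 the same genes lay -0.50 and -0.56 from the mean. Secreted defence products also varied between libraries. Over the 9 mucin and trefoil genes at that level, the average was lowest in pig 1 (-1.49) and highest in pig 2 (1.05). The 12 antimicrobial genes at that level lay -1.43 and 1.03 from the mean in these pigs. MUC5AC, a gel-forming mucin of airway goblet cells, was at 85.6, 40.0, 33.5, 21.1 and 56.4 CPM in papillae and 10.7, 309, 404, 782 and 254 CPM in organoids (adjusted p = 0.0757), and BPIFA1, an airway and oral secretory protein, at 2639, 637, 268, 1368 and 6448 CPM in papillae and 11.4, 887, 184, 698 and 137 CPM in organoids (adjusted p = 0.185). In both, pig 1 was the lowest organoid library and the groups overlapped. CLCA1, a goblet cell product, was at 941, 232, 59.95, 21.8 and 437 CPM in papillae and 627, 6017, 1710.2, 3086 and 1571 CPM in organoids, called (adjusted p = 0.0297) but not without pig 2, 3 or 4 (adjusted p = 0.0969, 0.1 and 0.0552).

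Among the most variable genes, CDSN, corneodesmosin, was at 30.8, 35.7, 66.3, 62.4 and 28.6 CPM in papillae and 1000.3, 86.1, 1382, 55.7 and 459.9 CPM in organoids, with the organoids of pigs 1 and 3 highest and those of pigs 2 and 4 lowest. It was called higher (adjusted p = 0.0185) but not without pig 3 or 5 (adjusted p = 0.0655 and 0.0701). SPRP, a small proline-rich protein of the cornified envelope, was at 623, 34.6, 233, 24.1 and 174 CPM in organoids and 3202 to 5674 CPM in papillae, and LOC102158679, a protein-coding gene without a symbol, at 1689, 228, 889, 59.8 and 184 and 3.22 to 8.37 CPM. Both were lower in pig 4 than in pigs 1 and 3. Of the suprabasal and cornified list, 7 genes had a mean log2 CPM of at least 3 in organoids. They lay on average 0.14, 0.22, 0.49, -0.64 and -0.22 from the organoid mean in pigs 1 to 5. Pig 2 was thus not low in this average, though only 3 of the 7 genes lay above their mean there. CXCL14, a chemokine, was highest in pigs 4 and 5 (28.2, 48.5, 98.7, 390.5 and 635 CPM). No label gives a property of the pigs or cultures by which these 5 libraries could be grouped, and with 1 library per pig a difference between pigs cannot be told apart from one between cultures.

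**Figure D5:**
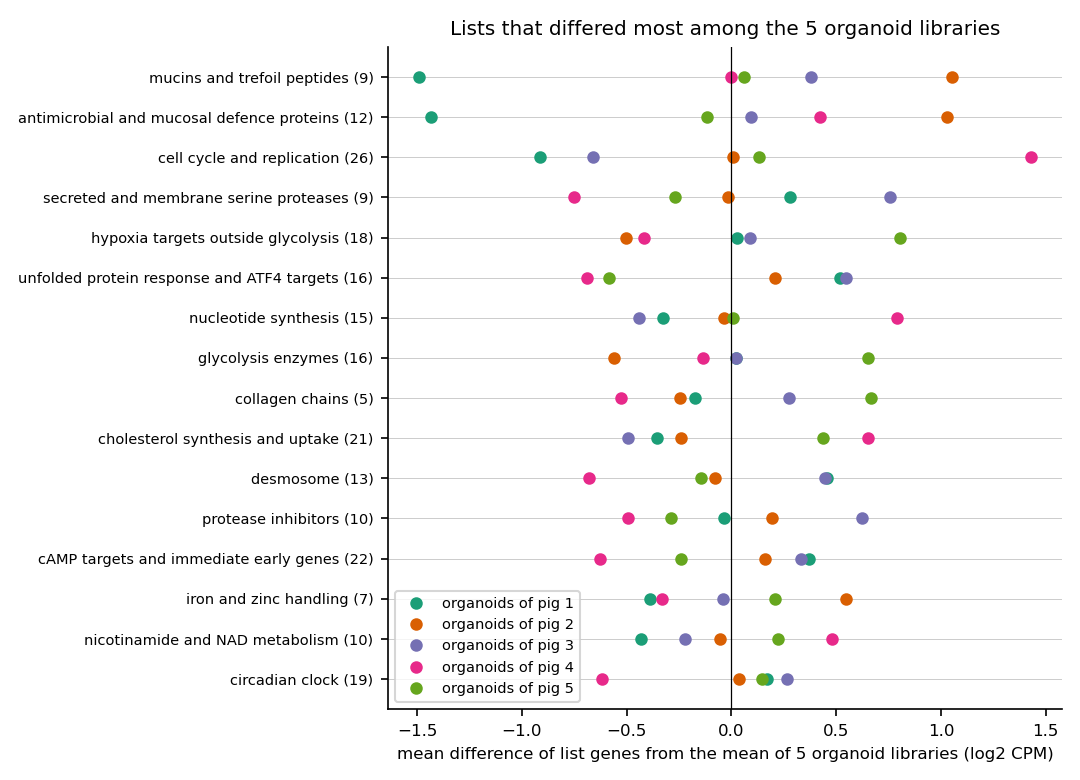
Mean difference, in log2 CPM, of the genes of a list from their mean over the 5 organoid libraries, for the 16 lists with the widest range. Only genes with a mean log2 CPM of at least 3 in organoids were used, and their number is in brackets. Each dot is 1 organoid library; pig 4 lies at 1.43 for cell cycle and replication and pig 1 at -1.49 for mucins and trefoil peptides.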

How the data were processed

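Poly-T selected RNA was sequenced. The deposited raw counts are read pairs assigned to genes by featureCounts 2.0.3, per the file headers (strand ignored, a pair counted for every gene it overlaps, multimapping pairs not counted), so antisense, overlapping and near-identical genes are uncertain. The submitters' processing notes also name FastQC 0.11.9, STAR 2.7.10b, MultiQC 1.14 and DESeq2. Coordinates are those of the files, and 26862 of 27376 genes matched the RefSeq gene table of Sscrofa11.1. Papillae were extracted with PicoPure and organoids with RNeasy Plus Mini, per the labels' protocols.

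Counts of the 10 libraries were fitted with edgeR 4.0.16 in R 4.3.3 (filterByExpr, TMM, quasi-likelihood F test, pig as a block, Benjamini-Hochberg over all genes tested). SE is the absolute log2 fold change over the square root of F, SD is over 5 libraries, and log2 CPM used a prior count of 2. Folds of genes with 0 counts in a group use a floor of 3 counts over that group; ratios for 1 to 3 counts have exact 95% intervals; both cover counting error only. Alternatives were other scalings and filters, DESeq2 1.42.0, limma 3.58.1 voom, no block, and leaving out each pig or library. The fit was tested on simulated counts with far fewer changed genes than were called here and without differences between pigs. That test does not cover a contrast of this size.

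Titles give the pig number of each sample, and same-pig libraries deviated from their group means with correlations of 0.0355 to 0.120 over 9426 genes. Of 5 papillae 1, and of 5 organoid libraries 3, correlated best with the other library of their own pig. With the pig as a block, p-values measure the spread over pigs of the difference between organoids and papilla. Nothing separates pig from culture in that spread. The comparison, the 82 gene lists and the rule for named genes were chosen with earlier results of these data known. That rule took from each list the 3 called genes of smallest p in each direction (where none was called, the most abundant), the 8 largest non-overlapping changes each way with an average log2 CPM of 3 or more, the 8 most abundant per kilobase and 8 most variable genes per group, and fixed check markers. Some genes that the rule took are not reported here.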

Additional observations from a re-analysis of the deposited data

Results flagged for a closer look

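Among the named genes, 28 of 435 groups of 5 libraries (6.44%) held a library far from the other 4 by Dixon's ratio, a rule that chance meets in about 1 in 20 groups. Groups with 3 counts or fewer were not examined.

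In papillae, pig 3 was high for SLC16A1 (15.5 CPM), SLC2A4 (45.9), CKM (1359) and NFIL3 (7.30). Pig 1 was high for MMP2 (277), WIF1 (99.2), IGF2 (271) and CD70 (0.432), and low for SMS (10.1) and ITGB6 (2.97). Pig 2 was high for MUC13 (0.902), AQP3 (1085) and IL18 (2.56), and low for RRM2B (6.82). Pig 5 was high for SOD1 (80.8).

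In organoids, pig 5 was high for ADM (308), DDIT4 (1493), GBE1 (156) and PYGM (0.624). Pig 2 was high for GLUL (2037), DEFB1 (0.861), SERPINB12 (0.123) and SLC12A2 (1328), and low for NRP2 (70.6). Pig 4 was high for PLK1 (66.1), IGSF23 (96.5) and MKI67 (283), and low for CCND2 (31.4).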

How the results depend on the processing

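Of 219 called genes named in the text, 18 lost their call in at least 1 of the 24 other settings. Of the other 201, 149 were tested and called in every setting, and 52 were called wherever tested but were not tested with at least 1 CPM in all libraries. Genes called higher fell from 4956 to 1617 under pan-epithelial scaling, and those at least 2-fold higher went from 2249 to 3641 on library size alone, 1458 with TMM over genes expressed in organoids and 768 under pan-epithelial scaling. With at least 1 CPM in all libraries, which tests fewer genes, 3632 genes were lower, 1256 at least 2-fold higher and 1984 at least 2-fold lower. The median SD of papillae was 0.202 at a mean log2 CPM of at least 3. BSG (-0.11), LAMA3 (-0.027) and GJA1 (-0.11) reversed under pan-epithelial scaling; the cause was not tested.

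Leaving out 1 pig, with the block, gave 9540 to 10277 called genes, 4317 to 4730 higher, 5163 to 5547 lower, 2088 to 2326 at least 2-fold higher and 4300 to 4536 at least 2-fold lower. Leaving out 1 library, without the block, gave up to 11577 called, 4954 to 5445 higher, 5489 to 6132 lower, 2312 to 2500 at least 2-fold higher and 4402 to 4744 at least 2-fold lower. Leaving out 1 library gave a median SD of 0.167 to 0.190 in papillae and 0.218 to 0.271 in organoids. Without the replicate block 11011 genes were called, 10440 of them also with it. The planned search for promoter motifs was not run, since no promoter sequence was used here.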
